A study of Mus musculus with 30 samples.

Results

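The 10 genes described here, Cd34, Cd81, Ackr4, Pi16, Dpp4, Ly6a, Cd55, Dpt, Clec3b and Anxa3, are markers of adventitial fibroblasts that carry the surface proteins CD34 and CD81. They were chosen by gene symbol, and all 10 were found among the 32386 gene symbols to which transcripts of the files were matched. Adventitial fibroblasts form the outer sheath of blood vessels and ducts in most organs, where they are known as CD34-positive cells with Pi16, Dpt and Ly6a transcripts. In the gut wall, CD34-positive, CD81-positive fibroblasts below the crypts are known as a source of Wnt-pathway ligands, R-spondins and antagonists of bone morphogenetic proteins that sustain crypt stem cells. The marker genes encode surface receptors, regulators of chemokines and complement, and proteins of the extracellular matrix.

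The study measured bulk RNA-seq in mesenchymal cells sorted by flow cytometry from the lamina propria of the small intestine (SI) and the colon (large intestine, LI) of untreated mice. The C57BL6/Nrj animals were 8 to 10 weeks old. There were 10 populations with 3 libraries each, 30 in all, and the small and large intestines came from 3 individual mice. Dead cells, blood-lineage cells, endothelial (CD31+), epithelial (EpCAM+), BP3+ and NCAM-high cells had been gated out and the outer muscle layer had been stripped. The single-cell data of the study were not analysed here.

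Pericytes were sorted in both tissues as PDGFRα−ESAM-1+PDPN− cells, and smooth muscle cells (SMC) in the small intestine as PDGFRα−ESAM-1+PDPN+ cells. All fibroblast (FB) gates were ESAM-1−. In the small intestine, CD34+ FB were PDGFRα-intermediate and CD34+, Fgfr2+ FB were PDGFRα-intermediate and CD34−, and PDGFRahi FB were PDGFRα-high and CD34−. In the colon, CD81+ FB were PDPN-intermediate, CD34+ and CD90−, Fgfr2+ FB were PDPN-high, CD34+ and CD90−, CD90+ FB were PDPN-high, CD34+ and CD90+, and PDGFRahi FB were PDPN+ and CD34−. The labels give SI CD34+ FB as a mixture of Igfbp5+ FB and CD81+ FB, whereas LI CD81+ FB were gated apart from the other CD34+ cells of the colon. CD34 was thus part of 7 of the gates through its protein, so that the level of the Cd34 transcript is a check of the sort, while CD81 protein was not used in any of them.

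Estimated counts per library lay between 2245052 in replicate 3 of SI Fgfr2+ FB and 19096945 in replicate 1 of LI CD90+ FB, with a median of 9601683. Levels are given as CPM (counts per 1000000) after TMM normalization, in each of the 3 libraries or as mean ± SD of 3 libraries. Floors and lower bounds given below cover counting error only, since amplified reads are not independent molecules.

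The genes of the sorting proteins were compared with the gates. Pdgfra, the receptor for platelet-derived growth factor, was present at 6208, 6854 and 6492 CPM in the libraries of SI PDGFRahi FB and 2389, 2398 and 2546 CPM in those of LI PDGFRahi FB. It stood at 923 ± 203 CPM in LI CD81+ FB and 824 ± 67.6 CPM in SI CD34+ FB. Esam, an adhesion molecule of mural and endothelial cells, was at 141 ± 67.0 CPM in LI pericytes and 0.0488 ± 0.0434 CPM in LI CD81+ FB. A list of 8 genes of PDGFRahi FB that includes Pdgfra had mean sums of 128 CPM in SI pericytes, 291 CPM in LI pericytes and 498 CPM in SI SMC. Mean Pdgfra in the fibroblast populations named here lay above these sums. Esam was higher in LI pericytes than in LI CD81+ FB. Epcam had 0 counts in all 3 libraries of 8 of the 10 populations and at most 5 counts in a library of the other 2. Thy1, which encodes CD90, was at 120.4, 117 and 58.4 CPM in LI CD81+ FB, a gate that is CD90−, and at 255, 175 and 159 CPM in LI CD90+ FB. The Thy1 transcript was therefore lower in the CD90− gate without overlap, and was not absent from it. Ncam1 was at 2008 ± 1560.0 CPM in SI SMC, 1348 ± 151 CPM in LI Fgfr2+ FB, 944 ± 121 CPM in SI CD34+ FB and 480.3 ± 42.5 CPM in LI CD81+ FB, although NCAM-high cells had been gated out.

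Of the 10 populations, LI CD81+ FB had the highest mean level of each of the 10 marker genes. For Ackr4 this rested on replicate 2 of LI CD81+ FB. Without that library Ackr4 was fitted higher in SI CD34+ FB (log2 fold change 0.124). The summed level of the 10 genes was 8473, 13681 and 10344 CPM in the 3 libraries of LI CD81+ FB and 7539.9, 6446 and 6327 CPM in those of SI CD34+ FB. LI Fgfr2+ FB had 3101, 3873 and 6312 CPM and LI CD90+ FB 3857, 4464 and 3696 CPM. The sum was lowest in SI pericytes, at 27.2, 17.7 and 46.1 CPM. Dpt alone made up more than any other marker gene of the sum in each of the 7 fibroblast populations. In bulk libraries, fewer cells of a type and less RNA per cell cannot be told apart.

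**Figure D1:**
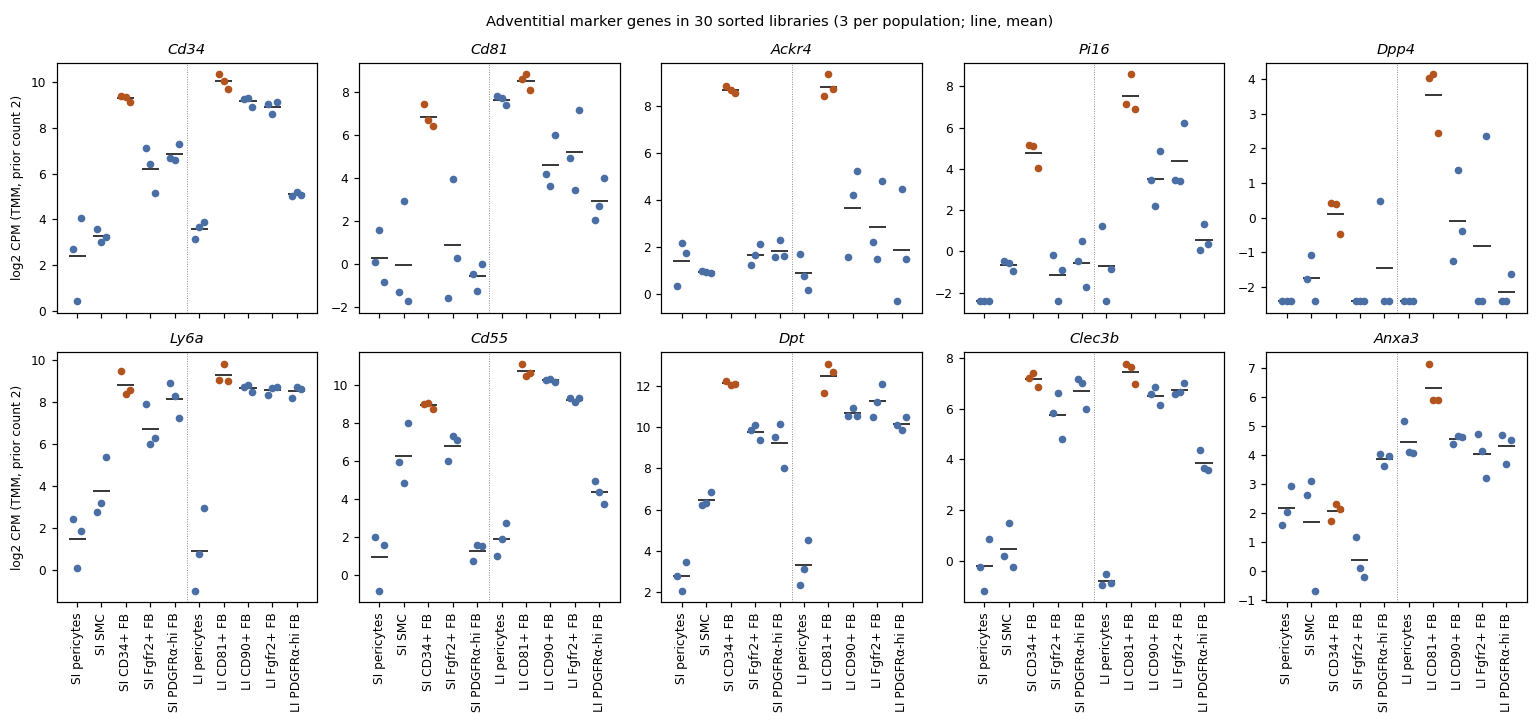
Levels of the 10 adventitial marker genes in 30 libraries. Each panel is a gene, each point a library (log2 CPM, TMM normalization, prior count 2) and each line the mean of 3 libraries; SI CD34+ FB and LI CD81+ FB are drawn in orange. LI CD81+ FB had the highest mean in all 10 panels, for Ackr4 only with replicate 2 of LI CD81+ FB included.

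Cd34 encodes a sialomucin of the cell surface that also marks endothelium and blood progenitors. It was at 1298, 1074 and 828 CPM in LI CD81+ FB and 679.9, 649 and 558 CPM in SI CD34+ FB. The other CD34+ gates, LI CD90+ FB and LI Fgfr2+ FB, had 613, 627 and 483 and 529.8, 389 and 564 CPM. LI CD81+ FB lay above all other populations, and the 3 other CD34+ gates overlapped each other and lay above every CD34− gate. Among the CD34− populations, Cd34 was at 117 ± 33.0 CPM in SI PDGFRahi FB, 85.7 ± 51.4 CPM in SI Fgfr2+ FB and 33.7 ± 2.29 CPM in LI PDGFRahi FB. It was at 11.9 ± 2.93 CPM in LI pericytes, 9.62 ± 2.01 CPM in SI SMC and 7.99 ± 7.88 CPM in SI pericytes. These 3 mural populations overlapped each other and lay below all fibroblasts.

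Cd81, a tetraspanin that organises membrane receptor complexes, was at 388, 456 and 273 CPM in LI CD81+ FB. LI pericytes came next with 224, 209 and 171 CPM, followed by SI CD34+ FB with 175, 103 and 86.7 CPM. Cd81 in LI CD81+ FB lay above all other populations, and LI pericytes overlapped SI CD34+ FB. The spread was wide in LI Fgfr2+ FB, with 30.6, 10.8 and 146 CPM, and in LI CD90+ FB, with 17.9, 12.1 and 64.2 CPM. In both, replicate 3 was the high library. Levels were 8.64 ± 6.16 CPM in LI PDGFRahi FB, 5.48 ± 8.48 CPM in SI Fgfr2+ FB and 2.58 ± 4.19 CPM in SI SMC. SI pericytes had 1.33 ± 1.27 CPM and SI PDGFRahi FB 0.522 ± 0.289 CPM, so that pericytes of the colon and the small intestine differed without overlap. A list of 8 smooth muscle genes had mean sums of 9435 CPM in LI pericytes and 4131 CPM in SI pericytes. In SI SMC, where Cd81 was at 2.58 ± 4.19 CPM, the mean sum was 17306 CPM. The part of smooth muscle content in the Cd81 difference between the pericytes was not tested.

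Ackr4 encodes an atypical receptor that takes up the chemokines CCL19, CCL21 and CCL25 without signalling through G proteins. It was at 344, 658 and 426 CPM in LI CD81+ FB and at 468, 409 and 381 CPM in SI CD34+ FB. These 2 populations overlapped, and every library of the other 8 lay below them. LI CD90+ FB had 2.74, 18.1 and 37.1 CPM, LI Fgfr2+ FB 4.44, 2.64 and 27.5 CPM and LI PDGFRahi FB 0.613, 22.2 and 2.58 CPM. The libraries of each of these 3 colon populations were thus widely spread. The remaining 5 populations had means between 1.73 CPM in SI SMC and 3.48 CPM in SI PDGFRahi FB, and neighbours from the third place down overlapped.

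Pi16, a secreted or membrane-anchored protein of the CAP family that gives the Pi16+ fibroblasts of many tissues their name, was at 143, 381 and 119 CPM in LI CD81+ FB. LI Fgfr2+ FB followed with 11.0, 10.3 and 74.9 CPM, SI CD34+ FB with 35.9, 33.8 and 16.001 CPM and LI CD90+ FB with 10.6, 4.35 and 28.6 CPM. LI CD81+ FB lay above all others, and the next 3 overlapped. The high mean of LI Fgfr2+ FB came from replicate 3. LI PDGFRahi FB had 1.41 ± 0.773 CPM, and the other 5 populations had means under 1 CPM. In SI pericytes Pi16 was listed at 0 in all 3 libraries.

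Dpp4, a surface peptidase also known as CD26 that removes dipeptides from chemokines and hormones, had the lowest counts of the 10 genes. It was at 16.3, 17.5 and 5.25 CPM in LI CD81+ FB, from 209, 277 and 63 estimated counts. SI CD34+ FB had 1.14, 1.13 and 0.537 CPM, from 12, 13 and 5 counts. Dpp4 in LI CD81+ FB lay above all other populations. In LI Fgfr2+ FB replicate 3 had 4.99 CPM and the others 0 counts, and LI CD90+ FB had 0.237, 2.42 and 0.572 CPM. SI PDGFRahi FB had 9, 0 and 0 counts, SI SMC 1, 3 and 0, and LI PDGFRahi FB 0, 0 and 1. Dpp4 was listed at 0 in all libraries of SI pericytes, SI Fgfr2+ FB and LI pericytes.

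Ly6a, or Sca-1, a lipid-anchored surface protein of mouse progenitor and stromal cells, was at 527, 892 and 512 CPM in LI CD81+ FB and 695, 335 and 372 CPM in SI CD34+ FB. The other colon fibroblasts had 405 ± 44.9 CPM (CD90+), 380.3 ± 53.9 CPM (Fgfr2+) and 365 ± 67.0 CPM (PDGFRahi). SI PDGFRahi FB had 311 ± 159 CPM and SI Fgfr2+ FB 125 ± 95.1 CPM. Each of these 7 fibroblast populations overlapped the next in order, and all lay above SI SMC at 18.7 ± 19.1 CPM. Ly6a was at 3.16 ± 2.14 CPM in SI pericytes and 3.15 ± 3.91 CPM in LI pericytes. Of the 31-base stretches of Ly6a, 31.9% are shared with other genes, and 21.9% occur in Ly6c1, which limits how far the reads of the 2 genes can be separated.

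Cd55, the decay-accelerating factor that protects cells from complement, was at 2189, 1403 and 1579.9 CPM in LI CD81+ FB. LI CD90+ FB had 1204, 1277 and 1134 CPM, LI Fgfr2+ FB 632, 539 and 619 CPM and SI CD34+ FB 500.0, 532 and 416 CPM. The 4 populations gated as CD34+ thus held the 4 highest places, and none overlapped the next. SI Fgfr2+ FB, at 119 ± 49.5 CPM, and SI SMC, at 60.05, 27.8 and 254 CPM, overlapped. LI PDGFRahi FB had 21.3 ± 8.64 CPM. Cd55 was lowest in LI pericytes (3.94 ± 2.35 CPM), SI pericytes (2.36 ± 1.79 CPM) and SI PDGFRahi FB (2.29 ± 0.713 CPM), and LI PDGFRahi FB did not overlap its SI counterpart. Of its 31-base stretches, 11.2% occur in Cd55b, the neighbouring copy of the gene.

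Dpt encodes dermatopontin, a matrix protein that binds decorin and collagen fibrils. It was at 3206, 8542 and 6418 CPM in LI CD81+ FB and 4834, 4208 and 4375 CPM in SI CD34+ FB. LI Fgfr2+ FB had 1452, 2402 and 4318 CPM, which overlapped both SI CD34+ FB and LI CD90+ FB at 1478, 1939 and 1498 CPM. The 4 CD34+ gates again held the upper 4 places. LI PDGFRahi FB had 1157 ± 253 CPM, SI Fgfr2+ FB 895 ± 225 CPM and SI PDGFRahi FB 713 ± 436 CPM, and these 3 overlapped in order. Dpt was at 90.2 ± 22.8 CPM in SI SMC, above LI pericytes at 12.1 ± 9.53 CPM and SI pericytes at 7.13 ± 3.36 CPM.

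Clec3b encodes tetranectin, a secreted lectin-like protein that binds plasminogen. It was at 219.6, 198 and 125 CPM in LI CD81+ FB and 147, 171 and 118 CPM in SI CD34+ FB. SI PDGFRahi FB held the third place with 143, 130.1 and 62.7 CPM, whereas LI PDGFRahi FB had 20.5, 12.4 and 11.7 CPM. PDGFRahi FB of the 2 tissues therefore differed in Clec3b without overlap. LI Fgfr2+ FB had 109 ± 17.2 CPM, LI CD90+ FB 93.3 ± 22.5 CPM and SI Fgfr2+ FB 60.6 ± 34.9 CPM, and the 6 upper populations overlapped from each to the next. SI SMC (1.40 ± 1.05 CPM), SI pericytes (0.831 ± 0.693 CPM) and LI pericytes (0.395 ± 0.0959 CPM) lay below all fibroblasts.

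Anxa3, a calcium-dependent phospholipid-binding annexin, was at 141, 59.2 and 58.7 CPM in LI CD81+ FB and at 3.15, 4.79 and 4.19 CPM in SI CD34+ FB. The other 4 colon populations had 23.3 ± 2.44 CPM (CD90+ FB), 23.2 ± 11.1 CPM (pericytes), 20.3 ± 6.66 CPM (PDGFRahi FB) and 17.6 ± 8.58 CPM (Fgfr2+ FB). All 5 colon populations had higher means than any small intestinal one, and SI PDGFRahi FB came next with 14.6 ± 2.21 CPM. SI SMC had 4.91 ± 4.06 CPM and SI pericytes 4.69 ± 2.39 CPM, both overlapping SI CD34+ FB. SI Fgfr2+ FB was lowest with 1.23 ± 0.756 CPM. SI CD34+ FB thus held the ninth of 10 places for Anxa3, although it was in the upper 4 for the other 9 genes.

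Levels of different genes were compared as CPM per kilobase of effective transcript length. On this scale the order in LI CD81+ FB began with Dpt at 4023 ± 1819, Ly6a at 1009 ± 332, Cd55 at 792 ± 348 and Cd34 at 463 ± 101. It went on with Cd81 at 305 ± 65.8, Clec3b at 233 ± 64.3 and Ackr4 at 218 ± 76.3, and ended with Pi16 at 99.1 ± 68.9, Anxa3 at 95.4 ± 27.9 and Dpp4 at 7.22 ± 8.28. In SI CD34+ FB, Dpt (2930.4 ± 222) and Ly6a (694 ± 296) also led, followed by Cd34 (272 ± 27.7), Ackr4 (191 ± 20.7), Cd55 (186 ± 20.6) and Clec3b (183 ± 33.1). Cd81 (106 ± 40.3), Pi16 (12.5 ± 5.05), Anxa3 (5.55 ± 1.86) and Dpp4 (0.844 ± 0.628) closed the order there. Pi16, Anxa3 and Dpp4 were the 3 least abundant markers per length in both populations.

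Within populations the libraries did not always match. In LI Fgfr2+ FB, replicate 3 was the highest library for 8 of the 10 markers and more than 3 times the next for 4 of them, Cd81, Ackr4, Pi16 and Dpp4. In LI CD81+ FB, replicate 1 was highest for 4 markers and replicate 2 for 6, and in SI CD34+ FB replicate 1 was highest for 7. Across the genes tested, log2 CPM of replicates correlated between 0.964 and 0.972 in SI CD34+ FB, between 0.824 and 0.877 in LI CD81+ FB and between 0.863 and 0.914 in LI Fgfr2+ FB. These are correlations across genes, and genes are not independent replicates. SI CD34+ FB had the closest replicates of the 10 populations.

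Differences were tested with edgeR in 1 model of the 30 libraries. A gene was called at an adjusted p under 0.05 and an absolute log2 fold change above 1.5. All 10 markers passed the filter of at least 6 counts in at least 3 libraries, as did 17564 genes in all. Cd34 is counted with the markers, although CD34 protein was part of the gates of SI CD34+ FB and LI CD81+ FB. Log2 fold changes are fitted values, given with their standard error. The p-values rest on the spread between libraries within populations, over all 10 populations of the model. The model treated the 30 libraries as independent, although the tissues came from 3 mice. Which libraries share a mouse is not given, and p-values do not account for it. The 4 comparisons of LI CD81+ FB within the colon share its 3 libraries, and the 4 of SI CD34+ FB share theirs, so the values are given side by side. As the genes are listed as markers of these cells, the direction of their differences was set by the choice and is a description. The other gene lists named below were also chosen with earlier results of these data known. Their counts and medians are therefore descriptions too, and no independent support for the markers. In the 8 comparisons within a tissue, the count of markers called lower was 0 by edgeR and 0 by DESeq2, and at an unadjusted p under 0.05 the only one lower was Anxa3 in SI CD34+ FB against SI PDGFRahi FB. DESeq2 called more genes in all than edgeR in every comparison, so its counts of markers and list genes stand against a larger background.

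**Figure D2:**
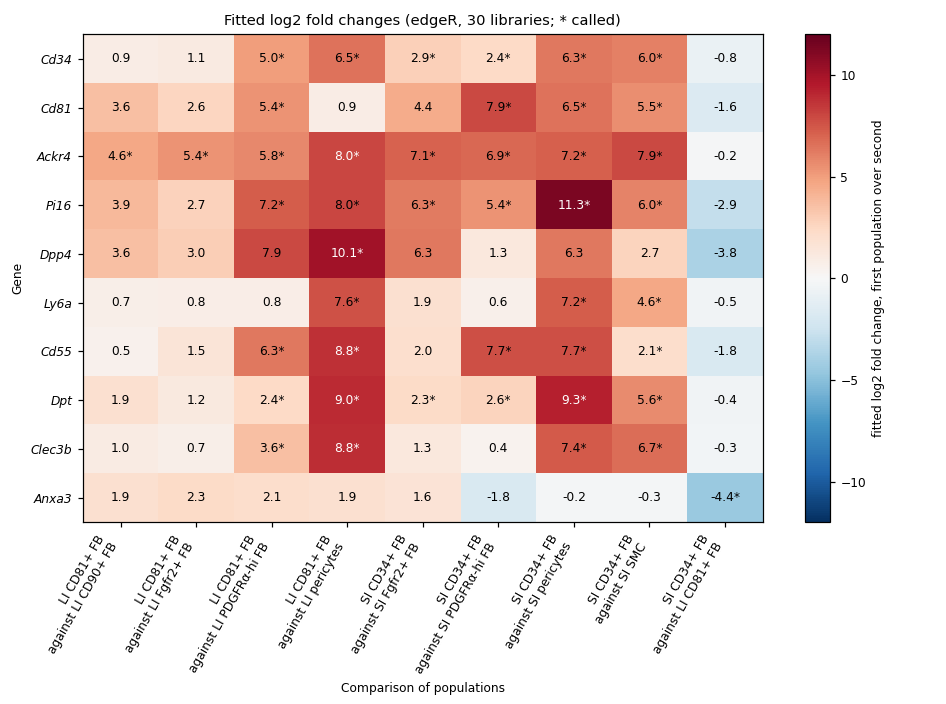
Fitted log2 fold changes of the 10 marker genes in 9 comparisons of populations. Each square is a gene (vertical axis) in a comparison (horizontal axis), red where the first-named population was higher, and an asterisk marks called genes; values for genes at 0 in a population (Dpp4 in pericytes and SI Fgfr2+ FB, Pi16 in SI pericytes) depend on the prior count. Ackr4 was called in all 8 comparisons within a tissue, of which that with LI CD90+ FB lost the call with any of 3 libraries left out.

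The comparison of LI CD81+ FB with LI CD90+ FB asks what sets the CD81+ cells apart from another CD34+ population of the colon. Ackr4 was the marker called: it was 24.6-fold higher in LI CD81+ FB by mean CPM (log2 fold change 4.62 ± 0.96, adjusted p = 0.0152). Among all genes tested, 0.273% were called higher and 0.347% lower. For all 10 markers the 3 libraries of LI CD81+ FB lay above those of LI CD90+ FB, which was so for 6.20% of all genes. Fitted log2 fold changes of markers that were not called included Pi16 at 3.88 ± 1.07, adjusted p = 0.119, Cd81 at 3.57 ± 1.17 and Dpt at 1.89 ± 0.49, adjusted p = 0.0772. The median over the 10 markers was 1.89, against 0.01 over all genes. Cd55 (0.52 ± 0.56), Ly6a (0.67 ± 0.68) and Cd34 (0.89 ± 0.49) had the smallest differences. The call of Ackr4 was lost without replicate 2 of LI CD81+ FB (log2 fold change 4.32), without replicate 1 of LI CD90+ FB (4.11) or replicate 2 (4.58), and in a fit of these 2 populations alone. Without replicate 1 of LI CD81+ FB, Dpt was called too (2.19). Without replicate 3 of LI CD90+ FB the log2 fold change of Ackr4 was 5.51, that of Pi16 4.83 and that of Cd81 4.63, and without replicate 2 of LI CD81+ FB that of Pi16 was 3.17. DESeq2 called 4 markers, Ackr4, Cd81, Pi16 and Dpt, beside 390 genes in all, where edgeR called 109.

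A list of 25 other genes known from adventitial or Pi16+ fibroblasts had 3 genes called higher in LI CD81+ FB than in LI CD90+ FB by edgeR, against 6 by DESeq2, and a median log2 fold change of 1.37. They were Efhd1, a calcium-binding mitochondrial protein, with a mean of 63.3 CPM against 3 counts in the fullest LI CD90+ library, Cmah (2.80 ± 0.43, adjusted p = 0.00111), which makes the sialic acid Neu5Gc, and Col14a1 (1.94 ± 0.45, adjusted p = 0.0318), a collagen of fibril surfaces. The fullest LI CD81+ library held 1851 counts of Efhd1, and the call without that library was not tested. Of 12 genes through which such cells act on crypt epithelium, edgeR called 1 higher, the alarmin Il33 (2.81 ± 0.64, adjusted p = 0.0298), and DESeq2 4, and the median was 1.53. Of 10 genes of Col15a1+, Igfbp5+ or CD90+ fibroblasts, complement C3 was called higher (3.46 ± 0.64, adjusted p = 0.00641) and Igfbp5 lower (-1.89 ± 0.42, adjusted p = 0.0244), against 2 higher and 1 lower by DESeq2, with a median of 0.63. These 3 lists had medians above that of all genes, 0.01.

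LI Fgfr2+ FB carry the same CD34+ CD90− gate and differ from LI CD81+ FB in their higher PDPN. Against them Ackr4 was again the marker called, 41.3-fold higher in LI CD81+ FB (log2 fold change 5.37 ± 1.00, adjusted p = 0.00414), with 0.342% of all genes called higher and 0.598% lower. Libraries of LI CD81+ FB lay above those of LI Fgfr2+ FB for 8 markers, against 6.18% of all genes, while Dpt and Clec3b overlapped. Markers not called included Anxa3 at 2.29 ± 0.72, adjusted p = 0.158, Pi16 at 2.74 ± 1.02, adjusted p = 0.285 and Cd55 at 1.53 ± 0.58, adjusted p = 0.292. Cd81 was not called either, at 2.58 ± 1.12, adjusted p = 0.386. The median of the 10 markers was 1.91, against 0.05 over all genes. Without replicate 3 of LI Fgfr2+ FB, the library with high marker levels, the log2 fold change of Ackr4 was 7.07, that of Pi16 4.33 and that of Cd81 4.17, and Pi16 and Cd81 were still not called. Without replicate 2 of LI CD81+ FB, Pi16 was at 2.03. DESeq2 called 2 markers, Ackr4 and Anxa3, beside 541 genes in all, where edgeR called 165.

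Of the 25 other adventitial genes, 7 were called higher in LI CD81+ FB than in LI Fgfr2+ FB by edgeR and 11 by DESeq2, with a median of 1.79. Efhd1, at 0 in LI Fgfr2+ FB, was at least 203-fold higher against a floor of 3 counts per library. The bound without the fullest LI CD81+ library, at 1851 counts, was not computed for Efhd1. Pcolce2, an enhancer of procollagen processing (5.44 ± 1.33, adjusted p = 0.0389), Scara5, a ferritin receptor (4.56 ± 0.79, adjusted p = 0.00191), and Gfpt2, an enzyme of the hexosamine pathway (4.27 ± 0.87, adjusted p = 0.00943), had the largest log2 fold changes after it. Of the 10 genes of Col15a1+, Igfbp5+ or CD90+ fibroblasts, C3 (2.94 ± 0.63) and Igf1 (1.69 ± 0.38) were called higher and Igfbp5 (-2.12 ± 0.42) lower, with a median of 0.70. Among the 12 crypt-support genes edgeR called 0 in either direction, against 6 higher and 3 lower at an unadjusted p under 0.05 and 3 higher by DESeq2, and the median was 1.49. The adventitial list had the highest of the 3 medians.

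LI PDGFRahi FB, the cells beneath the epithelium, are CD34−. Against them 7 of 10 markers were called higher in LI CD81+ FB, where 2.17% of all genes were called higher and 1.76% lower. All 10 lay above without overlap, as did 10.0% of all genes. The fold by mean CPM was 152 for Pi16 (log2 fold change 7.23 ± 1.27, adjusted p = 0.000473), 81.0 for Cd55 (6.34 ± 0.71, adjusted p = 7.57e-07) and 56.2 for Ackr4 (5.81 ± 1.02, adjusted p = 0.000417). Cd81 (5.43 ± 1.29, adjusted p = 0.00915), Clec3b (3.61 ± 0.56, adjusted p = 7.75e-05) and Dpt (2.39 ± 0.50, adjusted p = 0.00284) were also called, as was the gated Cd34 (4.98 ± 0.58). Anxa3 (2.08 ± 0.72, adjusted p = 0.113) and Ly6a (0.82 ± 0.68, adjusted p = 0.659) were not called by edgeR, and DESeq2 called Anxa3 (2.04). Dpp4, with 1 count in the LI PDGFRahi libraries together, was not called by edgeR either (adjusted p = 0.0768), but was called by DESeq2, in a fit of these 2 populations alone and under both other filters on low counts. The median of the 10 markers was 5.21, against 0.08 over all genes. Cd81 lost its call without replicate 1 of LI PDGFRahi FB (5.08) or without replicate 2 (5.25), and without the latter, which had the high Ackr4 level, the log2 fold change of Ackr4 was 8.22. Cd81 was at 6.17 without replicate 3 of LI PDGFRahi FB, and Pi16 at 6.52 without replicate 2 of LI CD81+ FB.

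Of the other adventitial genes, 18 of 25 were called higher and 1 lower in this comparison, with a median of 3.26. Examples are Sfrp4, a secreted Wnt antagonist (8.92 ± 1.58, adjusted p = 0.000867), Pcolce2 (8.40 ± 1.54, adjusted p = 0.000633) and Col14a1 (7.04 ± 0.56, adjusted p = 3.09e-09). The gene called lower was Procr, the endothelial protein C receptor (-6.94 ± 0.79, adjusted p = 8.43e-07), which was at 7.27 ± 4.64 CPM in LI CD81+ FB. Of the crypt-support genes edgeR called 8 of 12 higher and DESeq2 6 higher and 1 lower, with Il33 among those higher by edgeR (8.56 ± 0.87, adjusted p = 1.37e-07) and a median of 3.47. Rspo3, an R-spondin that amplifies Wnt signals, was among the genes edgeR called, but its LI CD81+ libraries ranged from 9.20 to 4348 CPM, and the call without the highest was not tested. Rspo2 was at 0 in LI PDGFRahi FB and at least 34.8-fold higher in LI CD81+ FB. Of the 10 genes of Col15a1+, Igfbp5+ or CD90+ fibroblasts 6 were higher, including C3 (7.61 ± 0.78) and the eotaxin gene Ccl11 (5.11 ± 0.47), with a median of 2.49. Thy1 was called too (5.95 ± 0.86).

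Against LI pericytes, 8 of 10 markers were called higher in LI CD81+ FB, beside 6.59% of all genes higher and 4.76% lower. All 10 lay above without overlap, against 11.9% of all genes. Dpt (8.96 ± 0.67, adjusted p = 1.22e-10), Clec3b (8.81 ± 0.73, adjusted p = 7.81e-10) and Cd55 (8.75 ± 0.80, adjusted p = 3.55e-09) were called. Ackr4 (8.04 ± 1.14, adjusted p = 7.32e-06), Pi16 (7.99 ± 1.31, adjusted p = 8.54e-05), Ly6a (7.63 ± 0.92, adjusted p = 4.94e-07) and Cd34 (6.49 ± 0.62) were called as well. Dpp4, at 0 in LI pericytes, was at least 42.6-fold higher, and its call (adjusted p = 0.0153) was lost without replicate 3 of LI pericytes (fitted log2 fold change 10.11). The 2 markers not called by edgeR were Cd81 (0.89 ± 1.07, adjusted p = 0.641), for which LI pericytes held the second place of all populations, and Anxa3 (1.89 ± 0.71, adjusted p = 0.0823). The median of the 10 was 8.01, or 7.81 with Dpp4 at its bound, against 0.01 over all genes. Both lay above LI pericytes without overlap, and DESeq2 called Anxa3 (1.85). Pi16 was at 9.94 without replicate 1 of LI pericytes and 7.27 without replicate 2 of LI CD81+ FB, and without replicate 3 of LI pericytes Ly6a was at 9.47 and Dpt at 9.82.

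In the same comparison 20 of the 25 other adventitial genes were called higher and 1, Procr, lower (-5.98 ± 0.75, adjusted p = 1.13e-06), with a median of 5.57. Ly6c1, at 0 in LI pericytes, was at least 279.6-fold higher, and Igfbp6 was at 136 against 0.138 CPM. The fullest LI CD81+ library held 2436 counts of Ly6c1, and the bound without that library was not computed. Among crypt-support genes 10 of 12 were called higher by edgeR and 9 by DESeq2, with Il33 at 9.35 ± 0.90, adjusted p = 1.06e-08 and a list median of 5.60. The 10 include Rspo3, whose LI CD81+ libraries ranged from 9.20 to 4348 CPM, and its call without the highest was not tested. Of the 10 genes of Col15a1+, Igfbp5+ or CD90+ fibroblasts 6 were higher, among them Igf1 (8.44 ± 0.51, adjusted p = 2.35e-12), and Igfbp5 was lower (-2.20 ± 0.42, adjusted p = 0.000453), with a median of 3.44.

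In the small intestine, SI CD34+ FB and SI Fgfr2+ FB share a PDGFRα-intermediate gate and differ in CD34. Of the 10 markers 4 were called higher in SI CD34+ FB, where 0.837% of all genes were called higher and 0.376% lower. All 10 lay above without overlap, against 19.1% of all genes. Ackr4 was 135-fold higher by mean CPM (log2 fold change 7.12 ± 1.099, adjusted p = 0.000472), Pi16 82.2-fold (6.26 ± 1.27, adjusted p = 0.00651) and Dpt 4.995-fold (2.32 ± 0.50, adjusted p = 0.0102), and the gated Cd34 was the fourth (2.87 ± 0.52). Cd81 (4.42 ± 1.23, adjusted p = 0.0753) and Cd55 (2.02 ± 0.59, adjusted p = 0.0975) were not called, but both were called by DESeq2 and by edgeR with no filter on low counts, and Cd55 in a fit of the 2 populations alone. Ly6a (1.90 ± 0.70, adjusted p = 0.274), Anxa3 (1.64 ± 0.74, adjusted p = 0.419) and Clec3b (1.26 ± 0.51, adjusted p = 0.35) were not called. Dpp4 was at least 1.85-fold higher and not called. The median of the markers was 2.59, or 2.17 with Dpp4 at its bound, against 0.02 over all genes. Without replicate 1 of SI Fgfr2+ FB or without replicate 3, the library with the fewest counts, Dpt was no longer called (2.34 and 2.14), and without replicate 2 Cd81 was called (8.26). Without replicate 1 the log2 fold change of Pi16 was 8.17, that of Cd81 3.83, that of Ly6a 2.73 and that of Anxa3 2.29, and without replicate 2 that of Pi16 was 5.61. Whether these differences are unlike those between LI CD81+ FB and LI Fgfr2+ FB was not tested.

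Of the 25 other adventitial genes, 9 were called higher in SI CD34+ FB than in SI Fgfr2+ FB and Procr lower (-3.48 ± 0.68, adjusted p = 0.00385), with a median of 2.56, or 1.46 with 4 genes at their bounds. Igfbp6, at 0 in SI Fgfr2+ FB, was at least 29.7-fold higher and Sfrp4 at least 12.5-fold. Adgrd1, an adhesion receptor, was higher by 4.62 ± 0.63, adjusted p = 0.000139. Among crypt-support genes 2 of 12 were called higher, Grem1, an antagonist of bone morphogenetic proteins (4.07 ± 0.75, adjusted p = 0.0025), and Chrdl1, another such antagonist, with 1 count in the fullest SI Fgfr2+ library. That list had a median of 1.79, or 1.09 with 1 gene at its bound. Of the 10 genes of Col15a1+, Igfbp5+ or CD90+ fibroblasts, 3 were higher, C3 (4.497 ± 0.67), Igfbp5 (1.81 ± 0.42) and Thy1, and Ccl11 was lower (-2.33 ± 0.41), with a median of 1.03.

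Against SI PDGFRahi FB, 6 of 10 markers were called higher in SI CD34+ FB, beside 2.02% of all genes higher and 1.21% lower. For the same 6, Cd34, Cd81, Ackr4, Pi16, Cd55 and Dpt, the libraries of SI CD34+ FB lay above without overlap, as they did for 17.5% of all genes. Cd81 was 233-fold higher by mean CPM (log2 fold change 7.92 ± 1.49, adjusted p = 0.000927), Cd55 210.4-fold (7.69 ± 0.77, adjusted p = 5.59e-08) and Ackr4 121-fold (6.90 ± 1.08, adjusted p = 8.52e-05). Pi16 (5.40 ± 1.18, adjusted p = 0.00532), Dpt (2.65 ± 0.50, adjusted p = 0.00107) and the gated Cd34 (2.42 ± 0.51) completed the 6, and Pi16 was at 6.44 without replicate 2 of SI PDGFRahi FB. Ly6a (0.59 ± 0.68, adjusted p = 1), Clec3b (0.38 ± 0.50, adjusted p = 1) and Dpp4 overlapped between the populations and were not called. Anxa3 lay below SI PDGFRahi FB without overlap (-1.85 ± 0.72, adjusted p = 0.257) and was called in a fit of these 2 populations alone. The median of the 10 was 2.54, against 0.00 over all genes.

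Here 13 of the 25 other adventitial genes were called higher and Procr lower (-4.67 ± 0.71, adjusted p = 6.03e-05), with a median of 4.12, or 4.07 with 3 genes at their bounds. Cd248, the stromal surface protein endosialin (8.35 ± 0.73, adjusted p = 6.85e-09), and Mfap5, a microfibril protein (7.62 ± 0.98, adjusted p = 4.59e-06), are examples, and Igfbp6 was at least 49.2-fold higher. Of the 12 crypt-support genes 6 were higher, including Sfrp1, a secreted Wnt antagonist (7.98 ± 0.61, adjusted p = 8.99e-10), Grem1 (8.91 ± 0.94, adjusted p = 1.59e-07) and Wnt2b (4.998 ± 0.47, adjusted p = 2.14e-08), and Rspo2 was at least 73.1-fold higher. Their median was 4.22, or 4.05 with 2 genes at their bounds. Of the 10 genes of Col15a1+, Igfbp5+ or CD90+ fibroblasts 4 were higher, C3 (9.22 ± 0.83), Pparg (6.37 ± 1.22), Hsd11b1 (5.85 ± 0.77) and Thy1, and Ccl11 lower (-1.67 ± 0.40), with a median of 1.55.

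Against SI pericytes, 8 of 10 markers were called higher in SI CD34+ FB, beside 5.96% of all genes higher and 4.09% lower, and 9 lay above without overlap, against 23.9% of all genes. The called markers included Dpt (9.29 ± 0.68, adjusted p = 8.15e-11), Cd55 (7.72 ± 0.77, adjusted p = 2.79e-08), Clec3b (7.40 ± 0.69, adjusted p = 7.38e-09) and Cd81 (6.47 ± 1.38, adjusted p = 0.00182). Pi16, at 0 in SI pericytes, was at least 61.7-fold higher. Ackr4 (7.16 ± 1.097), Ly6a (7.24 ± 0.91) and Cd34 (6.29 ± 0.62) were called too. Without replicate 3 of SI pericytes, Cd34 was at 7.47 and Clec3b at 8.41, and without replicate 2 Cd81 was at 7.69. Dpp4 was at least 2.02-fold higher and not called, and Anxa3 overlapped (-0.22 ± 0.71, adjusted p = 0.882). The median was 7.20, or 6.82 with Pi16 and Dpp4 at their bounds, against 0.02 over all genes. Cd81 was called against pericytes in the small intestine and not in the colon, and this difference between the tissues was not tested. Of the other adventitial genes 12 of 25 were higher, with Sema3c at 7.33 ± 0.61, adjusted p = 1.13e-09, and Procr lower (-5.82 ± 0.75), with a median of 2.75. Of the crypt-support genes 8 of 12 were higher, with Wnt2b at 7.56 ± 0.53, adjusted p = 3.91e-11, and Chrdl1 lower (-3.38 ± 0.80), with a median of 4.71, or 3.79 with 1 gene at its bound. Of the genes of Col15a1+, Igfbp5+ or CD90+ fibroblasts 5 of 10 were higher, with C3 at 8.04 ± 0.79, and Thy1 lower (-6.04 ± 0.85), with a median of 3.45.

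Against SI SMC, 8 of 10 markers were called higher in SI CD34+ FB, beside 2.05% of all genes higher and 1.45% lower, and 9 lay above without overlap, against 19.7% of all genes. Clec3b (6.67 ± 0.65, adjusted p = 5.31e-08), Dpt (5.63 ± 0.58, adjusted p = 1.35e-07), Ackr4 (7.92 ± 1.14, adjusted p = 2.9e-05) and Cd34 (6.03 ± 0.61) were kept under every alternative, and so were Pi16 (5.96 ± 1.23, adjusted p = 0.00304) and Ly6a (4.64 ± 0.79, adjusted p = 0.000301). Cd81 (5.54 ± 1.302, adjusted p = 0.00962) lost its call without replicate 1 of SI SMC (5.001) or replicate 3 (4.93), and without replicate 2, which held 77 of the 80 counts of SI SMC, its fitted log2 fold change was 9.46. Cd55 (2.08 ± 0.59, adjusted p = 0.0398) lost its call without replicate 1 of SI SMC (1.78), replicate 2 (1.62) or replicate 1, 2 or 3 of SI CD34+ FB (1.99, 1.94 and 2.18). Without replicate 3 of SI SMC, in which Cd55 was highest, it was 3.41. Ly6a was at 5.86 without that library, and Clec3b at 7.47 without replicate 2. A fit of the 2 populations alone also dropped Cd81 and Cd55. Anxa3 overlapped (-0.28 ± 0.70, adjusted p = 0.943), and Dpp4, at 4 counts over the SI SMC libraries, was not called. The median was 5.59, against 0.06 over all genes. Of the other adventitial genes 9 of 25 were higher, with Col14a1 at 7.54 ± 0.58 and Gsn, the actin-severing protein gelsolin, at 5.47 ± 0.53, and the median was 1.96, or 1.62 with 2 genes at their bounds. Of the crypt-support genes edgeR called Grem1 higher (5.17 ± 0.79) and Nt5e, the surface enzyme CD73, lower (-4.97 ± 0.92), against 4 higher and 1 lower by DESeq2, with a median of 0.88, or 0.18 with 1 gene at its bound. Of the genes of Col15a1+, Igfbp5+ or CD90+ fibroblasts 7 of 10 were higher, and Ccl11 (-3.13 ± 0.42) and Igf1 (-2.34 ± 0.39) lower, with a median of 3.33.

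SI CD34+ FB and LI CD81+ FB are the populations of each tissue in which the CD81+ cells were sorted. Of the 10 markers 1 was called lower in the small intestine, Anxa3, at 4.04 against 86.2 CPM on average (log2 fold change -4.41 ± 0.80, adjusted p = 0.0028), beside 0.495% of all genes called higher and 0.262% lower. For 6 markers, Cd34, Cd81, Pi16, Dpp4, Cd55 and Anxa3, the libraries of SI CD34+ FB lay below without overlap, against 8.62% of all genes. Fitted log2 fold changes of those not called were -2.90 ± 1.02, adjusted p = 0.273 for Pi16, -1.84 ± 0.58, adjusted p = 0.181 for Cd55, -3.77 ± 1.94, adjusted p = 0.568 for Dpp4 and -1.61 ± 1.08, adjusted p = 0.713 for Cd81. Ackr4 (-0.18 ± 0.83), Clec3b (-0.32 ± 0.50), Dpt (-0.44 ± 0.47) and Ly6a (-0.46 ± 0.68) overlapped. Without replicate 2 of LI CD81+ FB, Pi16 was at -2.19 and not called. The median over the 10 was -1.19, against -0.02 over all genes. Cd55 was called as well in a fit of these 2 populations alone. Since SI CD34+ FB also contain Igfbp5+ FB, tissue and the composition of the gate cannot be told apart here.

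In the same comparison 4 of the 25 other adventitial genes were called lower in SI CD34+ FB by edgeR, against 9 by DESeq2. They were Opcml (-3.77 ± 0.86, adjusted p = 0.0247), Cmah (-2.75 ± 0.43, adjusted p = 0.000594), the semaphorin gene Sema3c (-2.61 ± 0.47, adjusted p = 0.00263) and Ackr3, a decoy receptor for CXCL12 (-2.12 ± 0.52, adjusted p = 0.0453), and the median of the list was -1.69. Of the crypt-support genes Sfrp1 was called higher, at 7798 ± 1775 against 1383 ± 197 CPM (2.50 ± 0.48, adjusted p = 0.00494) and 0 lower by edgeR, against 1 higher and 1 lower by DESeq2 and 2 and 2 at an unadjusted p under 0.05, with a list median of -0.50. Igfbp5, a gene after which part of the SI gate is named, was called higher (1.68 ± 0.41, adjusted p = 0.046) and Thy1 lower (-4.88 ± 0.81, adjusted p = 0.0010) among the 10 genes of Col15a1+, Igfbp5+ or CD90+ fibroblasts, whose median was -0.18.

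A tissue interaction tested whether the step from PDGFRahi FB to SI CD34+ FB differed from the step from PDGFRahi FB to LI CD81+ FB. As the gates at both ends of the step differ between the tissues, tissue and gate cannot be told apart in it. Clec3b was the marker called, with an interaction of -3.23 ± 0.73, adjusted p = 0.0263, beside 0.484% of all genes called higher and 0.199% lower. Its step was 0.38 ± 0.50 for SI populations and 3.61 ± 0.56 for LI ones, where LI PDGFRahi FB had less of it. Of the 12 libraries, 9 left out in turn ended the call, with interactions between -3.37 and -3.01, and it was kept without replicate 3 of LI CD81+ FB, replicate 1 of LI PDGFRahi FB or replicate 3 of SI PDGFRahi FB. Anxa3 (-3.93 ± 1.02, adjusted p = 0.0764), Cd34 (-2.56 ± 0.70, adjusted p = 0.105) and Dpp4 (adjusted p = 0.627) were not called, and DESeq2 called Cd34 and Anxa3 as well. The interactions of Cd81, Ackr4, Pi16, Ly6a, Cd55 and Dpt lay between -1.83 for Pi16 and 2.48 for Cd81, with adjusted p-values of 0.849 or more. Without replicate 3 of LI PDGFRahi FB that of Cd81 was 1.74, and that of Pi16 was -0.79 without replicate 2 of SI PDGFRahi FB. Ackr4 was at -1.32 without replicate 2 of LI PDGFRahi FB. The median interaction of the 10 markers was -1.03, against -0.06 over all genes.

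Of the other adventitial genes edgeR called 3 of 25 with a lower step in the small intestine and 0 with a higher one, against 5 and 1 by DESeq2 and 5 and 4 at an unadjusted p under 0.05. The 3 were Col14a1 (-2.62 ± 0.62, adjusted p = 0.0402), Cmah (-2.36 ± 0.58, adjusted p = 0.0491) and the microfibril gene Fbn1 (-1.79 ± 0.37, adjusted p = 0.0115), and the list median was -0.34. Of the crypt-support genes Sfrp1 (4.57 ± 0.67, adjusted p = 0.000187) and Wnt2b (3.45 ± 0.57, adjusted p = 0.000961) had a higher step there and Il33 a lower one (-5.05 ± 0.96, adjusted p = 0.0044), with a median of 0.62. Of the 10 genes of Col15a1+, Igfbp5+ or CD90+ fibroblasts Ccl11 (-6.77 ± 0.61, adjusted p = 1.49e-07) and Igf1 (-2.18 ± 0.53, adjusted p = 0.0447) had a lower step, with a median of 0.16. Several of these genes are at 0 in a population, so that these medians depend in part on the prior count.

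The summed level of the 25 other adventitial genes was 26265, 32064 and 26162 CPM in LI CD81+ FB and 13786, 12698 and 11722 CPM in SI CD34+ FB, with Fbn1 the most abundant in both. LI CD90+ FB had 14241, 12169 and 9881 CPM, and population means were lowest in LI pericytes, at 2001 CPM. As for the markers, LI CD81+ FB was the highest population, for a list that was also chosen with earlier results known. The 12 crypt-support genes instead summed to 11058, 12378 and 8579 CPM in SI CD34+ FB, led by Sfrp1, and to 4735, 4732 and 8666 CPM in LI CD81+ FB, so that the populations overlapped. In the third LI CD81+ library 4348 CPM of the sum were Rspo3. The 10 genes of Col15a1+, Igfbp5+ or CD90+ fibroblasts, led by C3 in both, summed to 10995, 19078 and 11055 CPM in LI CD81+ FB and 14327, 13342 and 9631 CPM in SI CD34+ FB. The 10 sorting genes summed to 2823, 2248 and 1724 and 2384, 2444 and 2339 CPM in these populations, and 9 of them were tested.

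Marker lists of other cell types were summed in the same libraries. The 8 pericyte genes reached 228, 154 and 143 CPM in LI CD81+ FB and 3971, 4218 and 3582 CPM in SI CD34+ FB, against means of 40767 CPM in LI pericytes and 41208 CPM in SI pericytes. In SI CD34+ FB, Rgs5, a regulator of G-protein signalling, made up 3801 CPM of the sum and Cox4i2 was at 0, while Rgs5 was at 38.3 ± 20.1 CPM in LI CD81+ FB. The level of Rgs5 thus differed between the 2 populations, and its part in the comparison of tissues was not tested. Mean sums of the pericyte genes were also 2021 CPM in SI Fgfr2+ FB, 3084 CPM in SI PDGFRahi FB and 5246 CPM in SI SMC. In the other colon fibroblasts they were 225 CPM (CD90+), 656 CPM (Fgfr2+) and 451 CPM (PDGFRahi). The higher sum was therefore not particular to SI CD34+ FB. The 8 smooth muscle genes were at 329.7, 164 and 123 and 252, 281 and 266 CPM in LI CD81+ FB and SI CD34+ FB, with Smtn the most abundant, against a mean of 17306 CPM in SI SMC. The 8 genes of PDGFRahi FB were at 1418, 1318 and 896 and 1084, 1019 and 940.3 CPM, most of it Pdgfra, against a mean of 13122 CPM in SI PDGFRahi FB. The 4 genes of interstitial cells of Cajal were at 43.9, 3.78 and 17.2 and 29.2, 25.6 and 26.1 CPM, nearly all Etv1, and in LI CD81+ FB Kit and Thbs4 were at 0.

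Lists for cells outside the gates were summed in the same way. The 8 mesothelial genes summed to 0.312, 17.0 and 2.83 CPM in LI CD81+ FB and 2.097, 2.79 and 2.04 CPM in SI CD34+ FB, with Wt1 the most abundant and Bnc1, Gpm6a, Muc16, Upk1b and Upk3b at 0 in both. The 8 blood endothelial genes summed to 70.7, 48.4 and 65.2 and 37.0, 45.5 and 40.3 CPM, mostly Pecam1, with Cldn5 at 0 in SI CD34+ FB. The 6 lymphatic endothelial genes summed to 2.57, 2.90 and 13.6 and 8.20, 12.9 and 4.62 CPM, led by Ccl21a. The 8 haematopoietic genes summed to 9.52, 10.0 and 6.33 and 10.9, 10.5 and 13.1 CPM, led by Ptprc, with Cd3e, Cd52, Laptm5 and Tyrobp at 0 in LI CD81+ FB. The 8 epithelial genes summed to 25.0, 1.58 and 6.58 and 7.63, 9.85 and 9.88 CPM, led by Lgals4, with Krt8 at 0 in both. The 6 genes of lymphoid tissue stroma summed to 33.5, 16.2 and 18.7 and 122, 129 and 42.5 CPM, led by Cxcl13, and Tnfsf11 was at 0 in LI CD81+ FB. The part of such cells in the marker differences was not tested.

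Among themselves, the markers varied to different degrees over the 10 population means of log2 CPM. Pearson's r was 0.975 between Ly6a and Dpt, 0.946 between Ly6a and Clec3b and 0.940 between Dpt and Clec3b. Pi16 and Dpp4 had an r of 0.907, Ackr4 and Dpp4 0.873, and Ackr4 and Pi16 0.865. Cd34 had an r of 0.931 with Clec3b, 0.903 with Dpt and 0.887 with Pi16. Anxa3 had its highest r with Cd81, at 0.600, and its lowest with Cd55, at 0.203. Between Cd81 and Ly6a r was 0.223. These values describe 10 points that share normalization, with no test.

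Other genes were ranked by the likeness of their 10 population means to those of the markers, among 14225 genes. The 10 with the highest median r over the markers were Tcta (0.878), Rgmb (0.868), Arsi (0.867), Gm9913 (0.862), Castor1 (0.859), Loxl1 (0.859), Dcn (0.857), Gfpt2 (0.856), Cmtm3 (0.853) and Aida (0.853). Dcn, the small proteoglycan decorin, was at 14973 CPM on average in LI CD81+ FB and 11830.5 CPM in SI CD34+ FB. Loxl1, a cross-linker of elastin, was at 201 CPM in LI CD81+ FB and 159 CPM in SI CD34+ FB. The gene most like each single marker was Mgp for Cd34 (0.971), Stmn4 for Cd81 (0.938), Inmt for Ackr4 (0.990), Gm44976 for Pi16 (0.976) and Nfia for Dpp4 (0.978). It was Dnm1 for Ly6a (0.984), Fam102b for Cd55 (0.977), Fndc1 for Dpt (0.988), Wdfy2 for Clec3b (0.982) and Rbm28 for Anxa3 (0.911).

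The files also divide each gene's counts among its annotated transcripts. Most Cd34 counts of these fibroblasts fell on 2 forms. Cd34-202 held 60.2, 60.4 and 54.4% of Cd34 counts in LI CD81+ FB and 42.3, 47.6 and 45.5% in SI CD34+ FB. Cd34-201 held 38.7, 38.7 and 44.1% and 55.9, 49.7 and 52.1%. The shares of the 2 forms thus differed between these 2 populations without overlap, while in SI PDGFRahi FB Cd34-202 ranged from 29.2 to 66.0%. In LI pericytes a form with a retained intron, Cd34-204, held 86.2 ± 5.6% (mean ± SD) of the few Cd34 counts, and 67.5 ± 16.8% in SI SMC, against 1.1 ± 0.3% in LI CD81+ FB.

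Cd81-201 held 95.3 ± 2.0% of Cd81 counts in LI CD81+ FB and 92.0 ± 1.2% in SI CD34+ FB, and Ackr4-202 held 99.4 ± 0.7% and 98.4 ± 0.5% of Ackr4 counts. Pi16-202 held 85.1 ± 7.6% and 78.9 ± 3.1% of Pi16 counts, and Dpp4-201 held 94.9 ± 7.4% of Dpp4 counts in LI CD81+ FB. Cd55 was split between Cd55-201, with 47.3 ± 3.5% in LI CD81+ FB and 42.6 ± 7.0% in SI CD34+ FB, and Cd55-205, a form with a retained intron, with 48.0 ± 3.6% and 56.5 ± 7.0%. Anxa3-201 held 59.5 ± 3.5% of Anxa3 counts in LI CD81+ FB. Dpt and Clec3b each have 1 transcript in the files.

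The 10 genes lie on 7 chromosomes of the GRCm38 build. Cd34 (194938819 to 194961279), Cd55 (130439027 to 130462744) and Dpt (164796644 to 164824266) are on chromosome 1, and Ackr4 (104084157 to 104126933) and Clec3b (123150946 to 123157432) on chromosome 9. Dpp4 is on chromosome 2, Anxa3 on 5, Cd81 on 7, Ly6a on 15 and Pi16 on 17.

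Promoter sequences of 300 bases, 250 before and 50 after the start that RefSeq gives (GRCm38.p6), were available for 7 of the markers, Cd34, Cd81, Ackr4, Pi16, Dpp4, Cd55 and Dpt. Ly6a, Clec3b and Anxa3 had none in the table. RefSeq and GENCODE give some genes different starts, and the windows of Ackr4 and Pi16 lie inside their GENCODE limits. Motifs were searched on both strands: TGANTCA (AP-1), GGAATG (TEAD), GGGCGG (SP/KLF) and TGTTTAC (forkhead). GGGCGG occurred 3 times in the Cd81 promoter and 2 times in that of Cd55, and in 35.66% of all 32851 promoters. GGAATG occurred 1 time in the Dpp4 promoter and in 14.66% of all promoters. TGANTCA and TGTTTAC, held by 7.81% and 3.65% of all promoters, were in none of the 7 windows. GC content was 65.7% for Cd81 and 63.3% for Cd55, between 45.3% (Dpp4) and 53.3% (Pi16) for the other 5, and 52.7% in the median promoter. A match is a description of the letters and not a binding site.

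The promoters of the 3 markers with a match are printed below, with that of Ackr4. Capitals mark the motif on the printed strand, GGGCGG or its reverse complement CCGCCC, and CATTCC for the reverse complement of GGAATG. They lie at chr7:143052500-143052799, forward strand (Cd81), chr1:130462695-130462994, reverse strand (Cd55), chr2:62412182-62412481, reverse strand (Dpp4) and chr9:104126594-104126893, reverse strand (Ackr4), and run 5′ to 3′.
Cd81: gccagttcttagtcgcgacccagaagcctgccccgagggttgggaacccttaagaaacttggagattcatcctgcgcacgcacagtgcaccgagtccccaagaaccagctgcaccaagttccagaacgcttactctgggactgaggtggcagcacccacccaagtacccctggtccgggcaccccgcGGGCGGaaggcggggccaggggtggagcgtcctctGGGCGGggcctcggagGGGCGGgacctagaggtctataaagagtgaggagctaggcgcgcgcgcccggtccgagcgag
Cd55: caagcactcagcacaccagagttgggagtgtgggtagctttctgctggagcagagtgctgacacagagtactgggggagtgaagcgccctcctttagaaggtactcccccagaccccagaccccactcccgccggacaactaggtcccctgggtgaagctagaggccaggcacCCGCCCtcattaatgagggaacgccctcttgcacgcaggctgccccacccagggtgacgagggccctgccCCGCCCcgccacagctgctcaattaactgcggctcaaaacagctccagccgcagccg
Dpp4: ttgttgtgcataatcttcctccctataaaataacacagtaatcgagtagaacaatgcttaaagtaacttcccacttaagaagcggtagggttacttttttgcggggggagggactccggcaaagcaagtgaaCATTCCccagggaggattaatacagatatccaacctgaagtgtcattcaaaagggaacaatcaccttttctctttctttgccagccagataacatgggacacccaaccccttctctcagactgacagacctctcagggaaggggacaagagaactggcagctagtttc
Ackr4: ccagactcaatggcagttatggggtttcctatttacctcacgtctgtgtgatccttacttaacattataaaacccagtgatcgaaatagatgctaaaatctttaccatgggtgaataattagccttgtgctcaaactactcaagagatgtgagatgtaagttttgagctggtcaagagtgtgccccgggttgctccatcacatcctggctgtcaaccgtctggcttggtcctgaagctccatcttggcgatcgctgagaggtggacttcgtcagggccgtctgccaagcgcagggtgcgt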

How the data were processed

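Bulk RNA-seq of 10 sorted populations with 3 libraries each was used. The authors deposited a kallisto file per library (Trim Galore 0.4.0, FastQC 0.11.2 and kallisto 0.42.5 per the labels) with estimated counts, TPM and effective length. The transcript set of the kallisto index was not given in the sources used here. Of 98492 transcripts, 97204 were matched to 32386 gene symbols (GENCODE M21, GRCm38), holding 97.8 to 99.2% of the estimated counts. The deposited estimated counts were summed by symbol and rounded, and the deposited TPM and effective length were used for the order of populations and for levels per kilobase. A single transcript held 14.8 to 55.9% of the deposited TPM of a library.

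A minimum of 6 counts in 3 or more libraries was set, and the genes left were tested with edgeR 4.0.16 (TMM, quasi-likelihood F test, R 4.3.3), with Benjamini-Hochberg adjustment over all 17564 genes tested, and standard errors were taken as the absolute log2 fold change over the root of F. Alternatives were DESeq2 1.42.0, RLE factors, no filter, at least 10 counts in every library of a population, only the populations compared, a replicate block, and each library left out. Where every library of a population was at 0, folds are lower bounds with 3 counts per library. The code was tested on simulated data. Named list genes were the most abundant of each list and, per comparison, among the 4 called with the largest change in each direction. Gene members and lists were chosen with earlier results of these data known. Lists overlap: Thy1 is among the sorting genes and those of Col15a1+, Igfbp5+ or CD90+ fibroblasts, and Pdgfra among the sorting genes and those of PDGFRahi FB. The result of 1 list of another cell type is not reported.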

Additional observations from a re-analysis of the deposited data

Results flagged for a closer look

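The tissue interaction of Clec3b was picked out because a test of the difference between tissues passed its threshold. The step from PDGFRahi FB to the CD34+ or CD81+ population differed by a log2 value of -3.23 ± 0.73, adjusted p = 0.0263 (edgeR) between the small intestine and the colon. Clec3b was at 143, 130.1 and 62.7 CPM in SI PDGFRahi FB and 20.5, 12.4 and 11.7 CPM in LI PDGFRahi FB. It was at 147, 171 and 118 CPM in SI CD34+ FB and 219.6, 198 and 125 CPM in LI CD81+ FB. The tissues thus differed in PDGFRahi FB without overlap, while the other 2 populations overlapped. The gates of these populations also differ between the tissues, so tissue and gate cannot be told apart here. The call was lost in 9 of the 12 fits with a library left out, and the cause of the difference was not tested.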

How the results depend on the processing

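Fits other than those with a library left out gave 597 fitted log2 fold changes of markers, of which 569 kept direction and side of the threshold, 25 came past it and 3 were no longer past it. With a library left out, 626 of 660 kept both, 24 were no longer past it, 2 came past it and 8 reversed. RLE factors moved no count of calls by over 1.5 times.

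The counts of markers called that moved were these. For LI CD81+ FB against LI CD90+ FB (1) DESeq2 and no filter gave 4 each and the 2 populations alone 0; against LI Fgfr2+ FB (1) DESeq2 gave 2. For SI CD34+ FB against LI CD81+ FB (1) the 2 populations alone gave 2. For the interaction (1) DESeq2 gave 3, no filter 2 and the 4 populations alone 3. Genes called by DESeq2 numbered 390 for LI CD81+ FB against LI CD90+ FB (edgeR 109), 541 against LI Fgfr2+ FB (165) and 1216 against LI PDGFRahi FB (692). They numbered 598 for SI CD34+ FB against SI Fgfr2+ FB (213), 2875 against SI pericytes (1764), 1054 against SI SMC (614), 416 against LI CD81+ FB (133) and 316 for the interaction (120). With only the populations compared they were 34 and 68 for LI CD81+ FB against LI CD90+ FB and LI Fgfr2+ FB, 1003 against LI pericytes (1993), 395 and 1351 for SI CD34+ FB against SI Fgfr2+ FB and SI PDGFRahi FB (566) and 247 for the interaction. With no filter they were 167 for LI CD81+ FB against LI CD90+ FB and 217 for SI CD34+ FB against LI CD81+ FB. The cause was not tested.

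With each library left out, the counts of markers and of genes called had these ranges. LI CD81+ FB against LI CD90+ FB: 0 to 2 and 44 to 155; LI CD81+ FB against LI Fgfr2+ FB: 1 to 1 and 84 to 193; LI CD81+ FB against LI PDGFRahi FB: 6 to 7 and 481 to 656; LI CD81+ FB against LI pericytes: 7 to 8 and 1630 to 1874; SI CD34+ FB against SI Fgfr2+ FB: 3 to 5 and 126 to 180; SI CD34+ FB against SI PDGFRahi FB: 6 to 6 and 406 to 440; SI CD34+ FB against SI pericytes: 8 to 8 and 1177 to 2471; SI CD34+ FB against SI SMC: 6 to 7 and 390 to 557; SI CD34+ FB against LI CD81+ FB: 1 to 1 and 73 to 152; the interaction: 0 to 1 and 79 to 140. The libraries whose removal ended or added calls are named beside the results.

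Reversed with a library left out, and not called in either fit, were Anxa3 in SI CD34+ FB against SI pericytes (0.264 without SI pericytes replicate 3) and against SI SMC (0.347 without SI SMC replicate 2), and Ackr4 in SI CD34+ FB against LI CD81+ FB (0.124 without LI CD81+ FB replicate 2). In the interaction they were Ackr4 (-1.323 without LI PDGFRahi FB replicate 2), Ly6a (0.079 without LI CD81+ FB replicate 2 and 0.195 without SI PDGFRahi FB replicate 1) and Dpt (-0.043 without LI CD81+ FB replicate 1 and -0.134 without SI PDGFRahi FB replicate 3). Over all libraries left out, Anxa3 ranged over -0.476 to 0.264 against SI pericytes and -0.869 to 0.347 against SI SMC, and Ackr4 over -0.369 to 0.124 against LI CD81+ FB. In the interaction Ackr4 ranged over -1.323 to 1.637, Ly6a over -0.631 to 0.195 and Dpt over -0.134 to 0.769. The cause was not tested.

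In a fit blocked by replicate number, the markers called in the 10 comparisons numbered 1, 1, 7, 8, 4, 6, 8, 8, 1 and 1 and the genes 114, 167, 664, 1871, 222, 554, 1667, 607, 130 and 126. As a check of pairing, over 135 pairs with the same number the deviations correlated at 0.00763 on average (lowest -0.113, highest 0.135, 1 over 0.1), and 18 of 30 libraries, not all, matched best with their own number, a hint from the data and not from the design. The number of such matches by chance was not computed. The labels do not say that a number marks a mouse, and the numbers were not used as pairs in the main model. That model thus treated libraries that may share a mouse as independent.

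With 3 libraries per population, small differences can go uncalled, and a gene not called is not shown to be equal. The library with the fewest counts had 2245052, so that low counts such as those of Dpp4 are uncertain.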

Other observations

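In 28 of the 30 libraries the top transcript by TPM was one without a matched gene. By mean TPM all 10 markers were still highest in LI CD81+ FB. The orders of the populations by TPM and by CPM had Spearman correlations between 0.903 for Anxa3 and 1 for Cd81 and Dpt. Some places below the first thus differed by TPM.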
